A study of Oryctolagus cuniculus with 17 samples.

Results

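Chaperones are proteins that help other proteins fold, and cells keep separate sets of them in the endoplasmic reticulum (ER), the cytosol and the mitochondria. The genes described here were chosen by name from a list of 39 chaperone and heat shock genes, of which 24 act in or on the ER, 12 in the cytosol and 3 in the mitochondrial matrix. In the count table of the rabbit lung, 34 of the 39 had an entry, and all 34 were among the 13142 genes tested of 13827 listed. These were 21 ER, 11 cytosolic and 2 mitochondrial genes. CALR, CRELD2, ERN1, DNAJB1 and HSPE1 were not analysed here.

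The lungs came from New Zealand White rabbit pups that were delivered preterm by C-section at 28 days of gestation, kept in custom-made incubators and fed a milk replacer by tube. Pups kept in hyperoxia at 95% oxygen gave the groups HT3 (n = 3), HT5 (n = 2) and HT7 (n = 3) on postnatal days 3, 5 and 7. Pups kept in normoxia at 21% oxygen gave NT3, NT5 and NT7 (n = 3 each). All groups, controls included, were preterm, and the model was set up to study bronchopulmonary dysplasia, the chronic lung disease of preterm infants. RNA came from homogenized right lung, so each value is an average over all cell types, in which fewer cells of a type and less RNA per cell cannot be told apart. No label ties a pup to a litter, and p-values therefore measure the spread between these samples.

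Levels are given as CPM, the read count of a gene scaled to a fixed library size after TMM normalization, and log2FC is the log2 fold change of HT against NT on the same day. Sequencing depth ranged from 13123731 to 18111086 counts per sample, with each locus counted once. Lung identity was checked with 9 alveolar type 2 cell genes, which summed to between 12844 and 33536 CPM in every sample. Summed markers of endothelial cells were lower in HT5 and HT7 (892 to 1281 CPM) than in NT5 and NT7 (2096 to 2685 CPM), and none of these 7 genes was at 0 in a whole group. Of the 5 HT5 and HT7 samples, HT5 replicate 1 and HT7 replicate 2 had the highest alveolar type 2 sums, with 33536 and 29994 CPM against 12844 to 16592 CPM in the other 3. These 2 samples also stood apart in several chaperone genes below, and the part of cell composition in those values was not tested.

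In the ER, HSPA5 (BiP) and HSP90B1 (GRP94) bind unfolded secreted and membrane proteins, calnexin and the protein disulfide isomerases fold glycoproteins and form disulfide bonds, and ER-associated degradation removes what fails to fold. When unfolded proteins accumulate, the sensors ATF6, IRE1 and PERK start the unfolded protein response, in which ATF6 and the spliced form of XBP1 raise ER chaperone genes. In the cytosol, heat shock factor 1 (HSF1) raises HSP70, HSP90 and small heat shock protein genes. The mitochondrial matrix has its own HSP70 (HSPA9, mortalin), which pulls in and folds imported proteins, and the chaperonin HSPD1 (HSP60).

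On day 7 of hyperoxia, both mitochondrial genes were upregulated, HSPA9 4.05-fold and HSPD1 2.69-fold. Of the 11 cytosolic genes, 6 were upregulated by 1.45-fold to 1.71-fold and 1 was downregulated. Of the 21 ER genes, 4 were upregulated and 2 downregulated (28.6% called), a share no higher than the 33.6% of all genes called on day 7 (16.7% upregulated and 16.9% downregulated), and HSP90B1, calnexin and 3 protein disulfide isomerases were not called on any day by the main test. The median log2FC on day 7 was 0.11 over the ER genes, 0.54 over the cytosolic genes and 1.72 over the mitochondrial genes, against -0.01 over all genes tested.

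As a mean over the genes of a compartment, on the log2 CPM scale relative to the 9 normoxia samples, the level was 1.76 ± 0.30 in HT7 and 0.05 ± 0.15 in NT7 for the mitochondrial genes (SD, n = 3 each). It was 0.22 ± 0.16 and 0.09 ± 0.05 for the cytosolic genes. It was 0.16 ± 0.12 and 0.06 ± 0.09 for the ER genes, and 0.25 ± 0.12 and 0.08 ± 0.08 without ERN2, whose counts were low. These levels are a description of genes chosen by name, and were not tested.

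A gene was called here when its Benjamini-Hochberg adjusted p-value over all genes tested was under 0.01, the limit of the study, with no minimum on the fold change. On day 3, 0.205% of all genes tested were called, and none of the 34 chaperone genes. At an unadjusted p under 0.05, 6 ER and 3 cytosolic genes passed on day 3, against 15.3% of all genes. DESeq2 called 1, SERPINH1, against 1.64% of all genes. At an adjusted p under 0.05, 1 ER gene passed, ERN2, against 1.03% of all genes. On day 5, 16.2% of all genes were called, and 3 of 21 ER genes (14.3%) and 5 of the 13 cytosolic and mitochondrial genes (38.5%). On day 7, 33.6% of all genes were called, and 6 of 21 ER genes (28.6%) and 9 of 13 cytosolic and mitochondrial genes (69.2%). Over all genes, 8.56% were called upregulated and 7.62% downregulated on day 5, and 16.7% and 16.9% on day 7. The share of called ER genes was thus near that of all genes on both days, and that of the cytosolic and mitochondrial genes was above it. With the study's further limit of a log2FC above 2 or below -2, 1 of the 34 genes passed on day 7, HSPA9, and none on days 3 and 5, against 0.0533%, 1.58% and 4.59% of all genes on days 3, 5 and 7.

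The day 5 counts depended on HT5 replicate 2. Without it, no ER gene and 1 cytosolic or mitochondrial gene (HSPA9) was called. Without NT5 replicate 1, 2 or 3, the latter count was 2, 3 and 2. The share of all genes called in these fits is not given here. With only HT5 and NT5 in the fit, 0 of the 34 were called, and 12 of the 12694 genes tested. At an adjusted p under 0.05, 10 of the 13 cytosolic and mitochondrial genes and 4 of the 21 ER genes passed on day 5, against 31.3% of all genes.

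**Figure D1:**
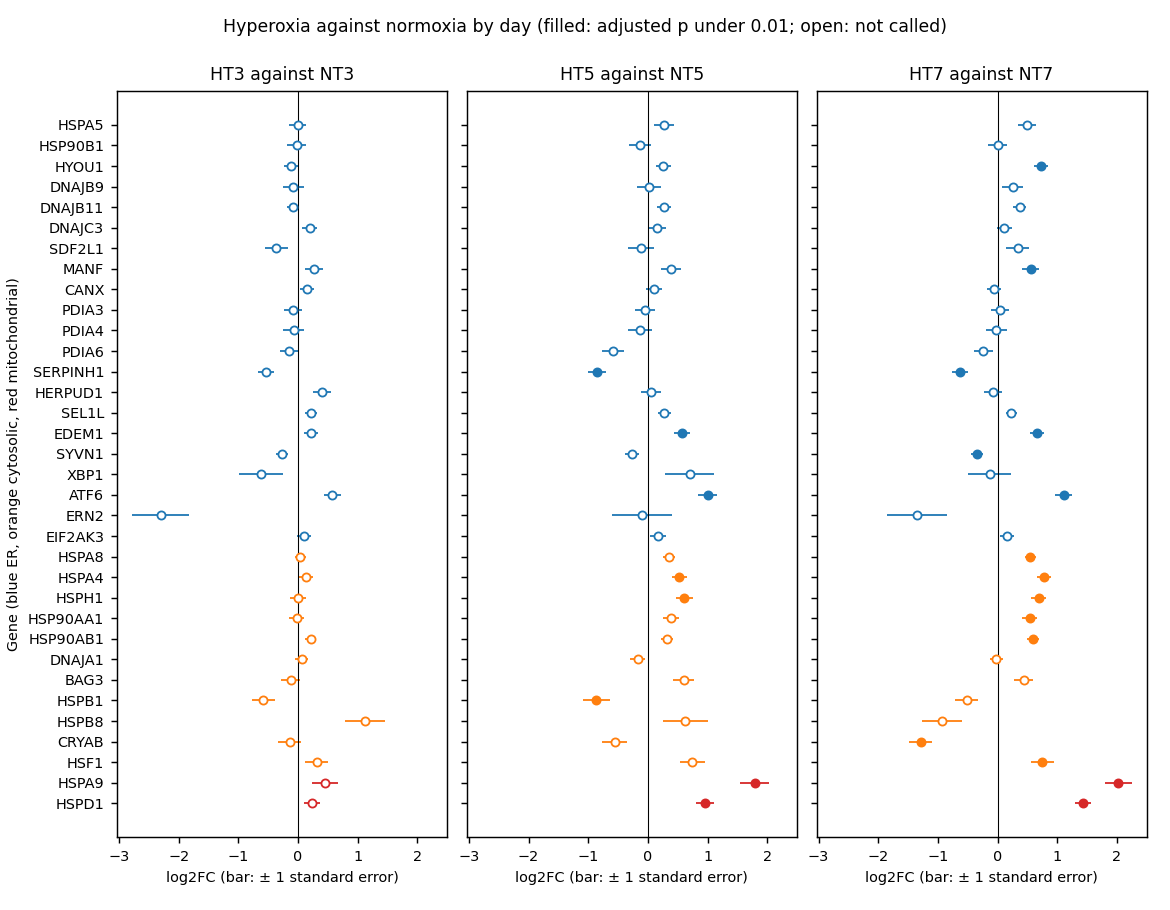
Log2FC of HT against NT for the 34 chaperone genes on days 3, 5 and 7. Points are the fitted log2FC and bars 1 standard error, with ER genes in blue, cytosolic genes in orange and mitochondrial genes in red, and filled points mark adjusted p-values under 0.01. No point is filled on day 3, 8 on day 5 and 15 on day 7.

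The 2 mitochondrial genes had the largest log2FC of the 34 genes on day 7, and HSPA9 also on day 5. HSPA9 lies on chromosome 3 (20812819 to 20831385, minus strand, OryCun2.0). It had 119.5, 109 and 133 CPM in the NT3 replicates and 166, 142 and 185 CPM in the HT3 replicates. On day 5 the values were 144, 125 and 117 CPM in NT5 against 305 and 585 CPM in HT5. On day 7 they were 143, 112 and 139 CPM in NT7 against 606, 380.4 and 607 CPM in HT7. All hyperoxia samples lay above all normoxia samples of the same day, and HT5 replicate 1 and HT7 replicate 2 were the lowest hyperoxia samples of their days. Mean HSPA9 was 531 ± 131 CPM in HT7 and 131 ± 17.1 CPM in NT7 (SD, n = 3 each). Its log2FC was 0.45 ± 0.22 (SE, adjusted p = 0.345) on day 3, 1.79 ± 0.24 (adjusted p = 0.000211) on day 5 and 2.02 ± 0.23 (adjusted p = 1.02e-05) on day 7. HSPA9 kept its calls on days 5 and 7 without any 1 sample.

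HSPD1 lies on chromosome 7 (137982897 to 137993929, minus strand). It forms the barrel in which imported matrix proteins fold. Its values were 125, 122 and 147 CPM in NT3 against 175, 129.7 and 159 CPM in HT3, which overlap. They were 148, 144 and 148 CPM in NT5 against 248 and 319 CPM in HT5. They were 156, 135 and 149 CPM in NT7 against 433, 330.4 and 417 CPM in HT7. On days 5 and 7 the groups did not overlap, and the 9 normoxia samples of all days lay between 122 and 156 CPM. The log2FC of HSPD1 was 0.24 ± 0.14 (adjusted p = 0.434) on day 3, 0.96 ± 0.15 (adjusted p = 0.000528) on day 5 and 1.43 ± 0.14 (adjusted p = 3.91e-06) on day 7. Without HT5 replicate 2, its day 5 log2FC was 0.75 (adjusted p = 0.0198).

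In the ER folding group, HSPA5 and HSP90B1 and their partners, 2 of 8 genes (25%) were called on day 7, HYOU1 and MANF, against 33.6% of all genes. HYOU1 exchanges nucleotide on BiP as an ER-resident relative of the HSP110 proteins. It had 176, 139.6 and 169 CPM in NT7 against 282, 262 and 259 CPM in HT7, and 172, 165 and 155 CPM in NT5 against 212 and 181 CPM in HT5. On day 3 the groups overlapped, with 141, 131 and 165 CPM in NT3 and 127, 125 and 149 CPM in HT3. HT7 and HT5 lay wholly above their controls, and HYOU1 was called on day 7 only (log2FC 0.73 ± 0.12, adjusted p = 0.000159), with 0.26 ± 0.13 on day 5 (adjusted p = 0.132) and -0.12 ± 0.12 on day 3 (adjusted p = 0.663).

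MANF is a secreted ER protein that binds BiP. It had 65.4, 56.9 and 59.1 CPM in NT7 against 96.2, 88.3 and 81.6 CPM in HT7, 56.1, 51.2 and 52.8 CPM in NT5 against 78.4 and 61.6 CPM in HT5, and 47.9, 38.2 and 49.1 CPM in NT3 against 55.7, 42.4 and 64.8 CPM in HT3. The groups did not overlap on days 5 and 7. Its log2FC was 0.55 ± 0.15 on day 7 (adjusted p = 0.00646), 0.39 ± 0.16 on day 5 (adjusted p = 0.0806) and 0.27 ± 0.15 on day 3 (adjusted p = 0.409). The call on day 7 was kept without HT7 replicate 3 only, and the adjusted p lay between 0.0103 and 0.0291 without any other single sample of HT7 or NT7.

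HSPA5, the central ER chaperone, was near the limit on day 7. It had 588, 419.8 and 493 CPM in NT7 against 779.7, 793 and 544 CPM in HT7. HT7 replicate 3 lay within the NT7 range, while the other 2 HT7 samples lay above it. The log2FC on day 7 was 0.50 ± 0.15 (adjusted p = 0.0127), and it passed the limit without HT7 replicate 3 (0.66, adjusted p = 0.00164) or NT7 replicate 1 (0.63, adjusted p = 0.00588), and with DESeq2 (0.49, adjusted p = 0.00514). On day 5 all HT5 values (601 and 509.5 CPM) lay above NT5 (473, 454 and 454 CPM), with a log2FC of 0.27 ± 0.16 (adjusted p = 0.222). On day 3 the log2FC was -0.01 ± 0.15.

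DNAJB11, an HSP40 partner of BiP, had a log2FC of 0.37 ± 0.11 on day 7, and all HT7 samples lay above NT7. Its adjusted p was 0.0105, and 0.00797 without HT7 replicate 3, 0.00526 without NT7 replicate 1 and 0.00443 with DESeq2. The other BiP partners DNAJB9, DNAJC3 and SDF2L1 had log2FC of 0.25, 0.11 and 0.34 on day 7, and adjusted p-values were 0.262, 0.486 and 0.16. HSP90B1 had 961, 835 and 905 CPM in NT7 and 849, 1081 and 777 CPM in HT7, with overlapping groups and a log2FC of 0.00 ± 0.16 (adjusted p = 0.989). HT7 replicate 2 and HT5 replicate 1 (979 CPM against 626 CPM in replicate 2) held the highest HSP90B1 values among the hyperoxia samples, while they held the lowest HSPA9 values among the 5 samples of HT5 and HT7.

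Among the ER lectins and disulfide isomerases, none of the 4 genes CANX, PDIA3, PDIA4 and PDIA6 was called on any day. At an unadjusted p under 0.05, 0 passed on day 3, 1 on day 5 and 0 on day 7, against 43.3% of all genes on day 5 and 53.9% on day 7. That 1 was PDIA6, a disulfide isomerase that also acts on the sensors, with a log2FC of -0.58 ± 0.18 on day 5 (adjusted p = 0.0223). DESeq2 called PDIA6 on day 5 (adjusted p = 0.00693). With 1 sample left out in turn, the day 5 log2FC of PDIA6 lay between -0.83, without HT5 replicate 1, and -0.39. On day 7 the 4 values lay between -0.24 and 0.03. PDIA4 had 301 CPM in HT5 replicate 1 and 167 CPM in replicate 2, with NT5 between them (243 to 267 CPM), so its day 5 log2FC of -0.13 had opposite signs without replicate 1 (-0.61) and without replicate 2 (0.22).

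SERPINH1 (HSP47), the ER chaperone of procollagen, was downregulated. It had 39.9, 45.8 and 40.4 CPM in NT5 against 26.7 and 20.1 CPM in HT5, and 33.8, 41.3 and 38.8 CPM in NT7 against 25.3, 23.1 and 24.7 CPM in HT7. On day 3 it had 35.1, 36.4 and 40.8 CPM in NT3 against 24.4, 23.2 and 29.5 CPM in HT3. Every hyperoxia sample lay below every normoxia sample, on all 3 days. The log2FC was -0.54 ± 0.13 on day 3 (adjusted p = 0.0707, and 0.0078 with DESeq2), -0.85 ± 0.15 on day 5 (adjusted p = 0.00121) and -0.64 ± 0.13 on day 7 (adjusted p = 0.00127). Without HT5 replicate 2 the day 5 value was -0.67 (adjusted p = 0.0321). The entry spans 2016 bp on chromosome 19 (35832459 to 35834474) and has no rabbit gene name, only a human one. The entries of DNAJB11, XBP1 and DNAJA1 likewise have a human name only. Summed fibroblast markers (8 genes, none at 0 in a whole group) ranged from 7032 to 8519.75 CPM in HT3, 5639 to 7147 CPM in HT5 and 7252 to 8189.65 CPM in HT7. They ranged from 9461 to 11672 CPM in NT3, 8075 to 9014 CPM in NT5 and 7668 to 9980.38 CPM in NT7. The median log2FC of these genes was -0.33 on day 3, -0.38 on day 5 and -0.14 on day 7. On day 7 they moved in both directions, from -1.56 to 1.33, with 2 called upregulated and 2 downregulated. The part of fibroblasts in the SERPINH1 values was not tested.

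In ER-associated degradation, 1 of 4 genes was called upregulated and 1 downregulated on day 7, against 16.7% and 16.9% of all genes. EDEM1, which draws misfolded glycoproteins out of the folding cycle, had 154, 149.6 and 152 CPM in NT7 against 254, 218 and 247 CPM in HT7, and 188, 137 and 143 CPM in NT5 against 242 and 223 CPM in HT5. On day 3 it had 144, 146 and 162 CPM in NT3 against 158, 198 and 169 CPM in HT3, which overlap. The groups did not overlap on days 5 and 7. EDEM1 was upregulated on both days, with a log2FC of 0.58 ± 0.13 (adjusted p = 0.00554) on day 5 and 0.66 ± 0.12 (adjusted p = 0.00052) on day 7, against 0.22 ± 0.12 (adjusted p = 0.414) on day 3. The day 7 call was kept without any 1 sample. The day 5 call was kept without NT5 replicate 1 only, with adjusted p-values between 0.0229 and 0.0339 without any other single sample.

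SYVN1 (HRD1), the ubiquitin ligase of the main degradation complex, had 101, 104 and 102 CPM in NT7 against 90.3, 74.5 and 75.8 CPM in HT7, 97.4, 103 and 97.8 CPM in NT5 against 87.9 and 77.6 CPM in HT5, and 104, 102 and 105 CPM in NT3 against 75.6, 93.8 and 88.5 CPM in HT3. All hyperoxia samples lay below all normoxia samples, which varied by 2.6% (coefficient of variation over 9 samples). The log2FC of SYVN1 was -0.27 ± 0.10 on day 3 (adjusted p = 0.206), -0.27 ± 0.11 on day 5 (adjusted p = 0.0799) and -0.35 ± 0.10 on day 7 (adjusted p = 0.00906). The call on day 7 was kept without HT7 replicate 1 only, and was lost with adjusted p-values between 0.02 and 0.0458 without any other single sample. It was also lost with no filter on low counts (adjusted p = 0.0101) and with only HT7 and NT7 in the fit (adjusted p = 0.0444). SEL1L, the partner of SYVN1, had a log2FC of 0.23 on day 7 (adjusted p = 0.0643), and HERPUD1, which joins the same complex, one of -0.07 (adjusted p = 0.711).

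Of the sensors, ATF6 was called. This membrane-bound transcription factor is cut on ER stress and then moves to the nucleus. It had 74.9, 82.7 and 84.3 CPM in NT3 against 109.7, 126 and 125 CPM in HT3. It had 90.2, 86.0 and 84.0 CPM in NT5 against 135 and 212 CPM in HT5, and 95.5, 85.4 and 88.0 CPM in NT7 against 207, 166 and 207 CPM in HT7. Every hyperoxia sample lay above every normoxia sample, and HT5 replicate 1 and HT7 replicate 2 were again the lower ones. The log2FC was 0.58 ± 0.14 on day 3 (adjusted p = 0.0676), 1.0 ± 0.15 on day 5 (adjusted p = 0.000458) and 1.11 ± 0.14 on day 7 (adjusted p = 2.87e-05). Without HT5 replicate 2 the day 5 value was 0.62 (adjusted p = 0.016). The counts measure ATF6 RNA, not cleavage of the protein.

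EIF2AK3 (PERK), the kinase that slows translation, had log2FC of 0.10, 0.17 and 0.16 on days 3, 5 and 7 (adjusted p = 0.755, 0.355 and 0.31). ERN2, the epithelial form of IRE1, was near the limit of detection, with 3 to 32 counts per sample. On day 3 it had 16 to 32 counts in NT3 and 3 to 9 in HT3 (log2FC -2.30 ± 0.48, adjusted p = 0.0363), and on day 7 8 to 13 counts in NT7 and 4 to 5 in HT7 (log2FC -1.35 ± 0.51, adjusted p = 0.039). XBP1 RNA varied widely in normoxia. It had 22.2, 20.3 and 55.9 CPM in NT3, 21.9, 17.1 and 18.3 CPM in NT5 and 26.6, 19.8 and 55.0 CPM in NT7, against 19.6, 21.7 and 22.5 CPM in HT3, 27.6 and 34.4 CPM in HT5 and 33.1, 34.3 and 24.9 CPM in HT7. NT3 replicate 3 and NT7 replicate 3 stood far above the other normoxia samples, and decided the XBP1 values. Its log2FC was -0.62 on day 3 and -0.14 on day 7, and 0.00 without NT3 replicate 3 and 0.41 without NT7 replicate 3 (adjusted p = 0.996 and 0.37). On day 5 it was 0.70 ± 0.41 (adjusted p = 0.204). Spliced and unspliced XBP1 cannot be told apart in a count per gene.

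**Figure D2:**
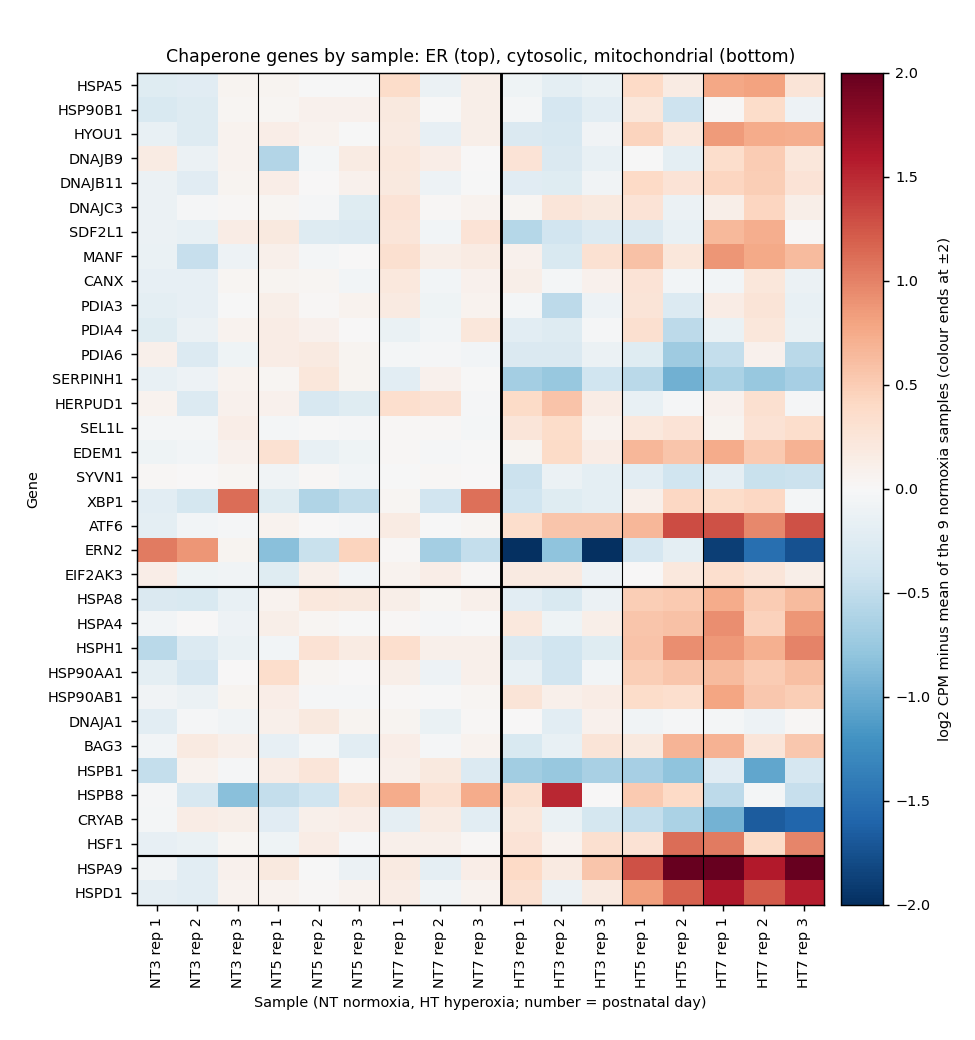
Level of the 34 chaperone genes in each of the 17 samples, as log2 CPM minus the mean of the 9 normoxia samples. Rows are genes (ER, cytosolic and mitochondrial from top to bottom), columns samples (normoxia left, hyperoxia right), and colours end at 2 and -2. HSPA9 is the deepest red in HT5 and HT7, ERN2 is deep blue in HT3 and HT7, the cytosolic HSP70 and HSP90 genes are light red in HT5 and HT7, and XBP1 stands out in NT3 replicate 3 and NT7 replicate 3.

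All 3 cytosolic HSP70 and HSP110 genes were called upregulated on day 7, against 16.7% of all genes. HSPA8, the constitutive HSC70, had 446, 444 and 492 CPM in NT3, 573, 629.8 and 628 CPM in NT5 and 595, 560.0 and 588 CPM in NT7. It had 470.3, 440.0 and 506 CPM in HT3, 768 and 784 CPM in HT5 and 917, 777 and 849 CPM in HT7. The groups overlapped on day 3 only. The log2FC was 0.04 ± 0.09 on day 3 (adjusted p = 0.892), 0.35 ± 0.10 on day 5 (adjusted p = 0.0167) and 0.54 ± 0.09 on day 7 (adjusted p = 0.000213). DESeq2 called HSPA8 on day 5 also (adjusted p = 0.00248).

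HSPA4 is an HSP110 family exchange factor of cytosolic HSP70. It had 156, 150.1 and 152 CPM in NT7 against 293, 210.4 and 281 CPM in HT7, 166, 157 and 153 CPM in NT5 against 225 and 231 CPM in HT5, and 148, 154 and 143 CPM in NT3 against 177, 144 and 167 CPM in HT3. HT5 and HT7 lay wholly above their controls. Its log2FC was 0.13 ± 0.11 on day 3 (adjusted p = 0.633), 0.52 ± 0.13 on day 5 (adjusted p = 0.00667) and 0.78 ± 0.11 on day 7 (adjusted p = 8.76e-05). The day 5 call was lost without any 1 sample (adjusted p between 0.0114 and 0.0671).

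HSPH1 (HSP105), of the same family, is also a heat shock gene. It had 81.1, 68.5 and 68.6 CPM in NT7 against 117, 105 and 128 CPM in HT7, 62.0, 78.7 and 71.7 CPM in NT5 against 95.0 and 122 CPM in HT5, and 44.3, 52.9 and 58.6 CPM in NT3 against 52.7, 48.6 and 54.0 CPM in HT3. The groups overlapped on day 3 and were apart on days 5 and 7. The log2FC was 0.00 on day 3 (adjusted p = 0.993), 0.61 ± 0.15 on day 5 (adjusted p = 0.00647) and 0.68 ± 0.13 on day 7 (adjusted p = 0.000761). On day 5 the call was lost without HT5 replicate 2 (0.41, adjusted p = 0.153), NT5 replicate 1 (adjusted p = 0.0235) or NT5 replicate 3 (adjusted p = 0.0196).

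Both cytosolic HSP90 genes, whose products mature kinases and receptors, were called upregulated on day 7, against 16.7% of all genes. HSP90AB1 had 929, 910.4 and 949 CPM in NT7 against 1590.2, 1333 and 1287 CPM in HT7. It had 1006, 906 and 901 CPM in NT5 against 1184 and 1156 CPM in HT5, and 878, 848 and 953 CPM in NT3 against 1093, 991 and 1015 CPM in HT3. HSP90AB1 was higher in every hyperoxia sample than in every normoxia sample of the same day, with a log2FC of 0.21 ± 0.10 on day 3 (adjusted p = 0.312), 0.32 ± 0.11 on day 5 (adjusted p = 0.0342, and 0.00903 with DESeq2) and 0.59 ± 0.10 on day 7 (adjusted p = 0.000183). HSP90AA1, the inducible form, ranged from 664 to 771 CPM in NT7 and from 1009 to 1101 CPM in HT7, with a log2FC of 0.54 ± 0.12 (adjusted p = 0.00234, and 0.0153 without NT7 replicate 2), and its log2FC was -0.02 on day 3 and 0.39 on day 5 (adjusted p = 0.952 and 0.0414). HSP90AB1 has 3 entries in the table, and the values are those of the entry on chromosome 12, with 306941 counts in all against 7162 and 2052 in the others, between which reads can be shared.

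HSF1, the transcription factor of heat shock genes, was called on day 7. It had 63.6, 64.0 and 60.7 CPM in NT7 against 122, 77.5 and 117 CPM in HT7, 56.1, 65.7 and 58.7 CPM in NT5 against 73.0 and 129 CPM in HT5, and 53.0, 54.4 and 60.9 CPM in NT3 against 71.7, 62.5 and 74.4 CPM in HT3. The groups did not overlap on any day, and HT5 replicate 1 and HT7 replicate 2 were the lowest hyperoxia samples of their days. The log2FC was 0.31 ± 0.19 on day 3 (adjusted p = 0.455), 0.75 ± 0.20 on day 5 (adjusted p = 0.0134) and 0.75 ± 0.19 on day 7 (adjusted p = 0.00414). With 1 sample left out in turn, the day 5 log2FC of HSF1 lay between 0.26 and 1.10, the latter without HT5 replicate 1. DESeq2 called HSF1 on day 5 (adjusted p = 0.00437). The day 7 call was kept without HT7 replicate 2 only, with adjusted p-values between 0.013 and 0.0222 without any other single sample. It was also lost with only HT7 and NT7 in the fit (adjusted p = 0.0107).

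BAG3, a co-chaperone that hands HSP70 clients to autophagy, had log2FC of -0.12, 0.60 and 0.44 on days 3, 5 and 7 (adjusted p = 0.763, 0.0182 and 0.0336), and all HT5 and HT7 samples lay above their controls. With 1 sample left out in turn, the day 5 log2FC of BAG3 lay between 0.32 and 0.82, the latter without HT5 replicate 1. BAG3 passed the limit on day 5 with DESeq2 (adjusted p = 0.00817). DNAJA1, an HSP40 co-chaperone, ranged from -0.17 to 0.06 on the 3 days. Its entry lies within the span of another gene, TASP1, and both carry the same counts, so it cannot be told apart from that gene.

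The small heat shock proteins hold unfolding proteins without using ATP, and 1 of the 3 genes was called downregulated on each of days 5 (HSPB1) and 7 (CRYAB), against 7.62% and 16.9% of all genes. CRYAB (alpha-B crystallin) had 78.7, 99.4 and 76.4 CPM in NT7 against 46.2, 28.0 and 29.7 CPM in HT7, 76.0, 95.8 and 96.9 CPM in NT5 against 64.1 and 57.6 CPM in HT5, and 86.1, 98.9 and 96.0 CPM in NT3 against 104, 80.7 and 69.5 CPM in HT3. The groups overlapped on day 3 and not later. CRYAB was downregulated on day 7 (log2FC -1.29 ± 0.19, adjusted p = 9.68e-05), with -0.56 ± 0.21 on day 5 (adjusted p = 0.0597) and -0.14 ± 0.19 on day 3 (adjusted p = 0.773).

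HSPB1 (HSP27) had 53.7, 57.5 and 48.6 CPM in NT5 against 30.7 and 27.9 CPM in HT5, 35.0, 51.3 and 48.1 CPM in NT3 against 29.9, 28.6 and 31.2 CPM in HT3, and 52.5, 55.9 and 40.3 CPM in NT7 against 41.8, 23.7 and 38.4 CPM in HT7. The groups overlapped on day 7 only. HSPB1 was called on day 5 (log2FC -0.86 ± 0.22, adjusted p = 0.00912) and not on day 3 (-0.58 ± 0.19, adjusted p = 0.163) or day 7 (-0.52 ± 0.19, adjusted p = 0.0385). The call on day 5 was lost without any 1 sample (adjusted p between 0.016 and 0.0956).

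HSPB8, a partner of BAG3 that is abundant in muscle, had 15.8, 12.8 and 8.99 CPM in NT3 against 20.0, 45.6 and 16.0 CPM in HT3, 11.5, 12.2 and 19.0 CPM in NT5 against 22.9 and 21.2 CPM in HT5, and 26.7, 19.8 and 26.9 CPM in NT7 against 11.1, 15.6 and 11.6 CPM in HT7. Hyperoxia samples lay above normoxia samples on days 3 and 5 and below them on day 7. The log2FC was 1.12 ± 0.34, 0.63 ± 0.37 and -0.94 ± 0.34, and none was called (adjusted p = 0.129, 0.207 and 0.0326). With 1 sample left out in turn, the day 3 value lay between 0.52 and 1.39.

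Muscle markers differed between some of these libraries. The 8 skeletal muscle genes summed to 500.3 CPM in HT3 replicate 2, where HSPB8 was highest, and to 477 CPM in HT5 replicate 1, against 96.9 to 159.5 CPM in all other samples. Smooth muscle markers (7 genes) were lower in HT5 and HT7, at 569 to 888 CPM, than in NT5 and NT7, at 916 to 1218 CPM. Heart muscle markers (7 genes) ranged from 8.76 to 13.8 CPM in HT7 and from 32.3 to 36.3 CPM in NT7, and NPPA was at 0 in both HT5 samples. The part of muscle in the small heat shock protein values was not tested.

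**Figure D3:**
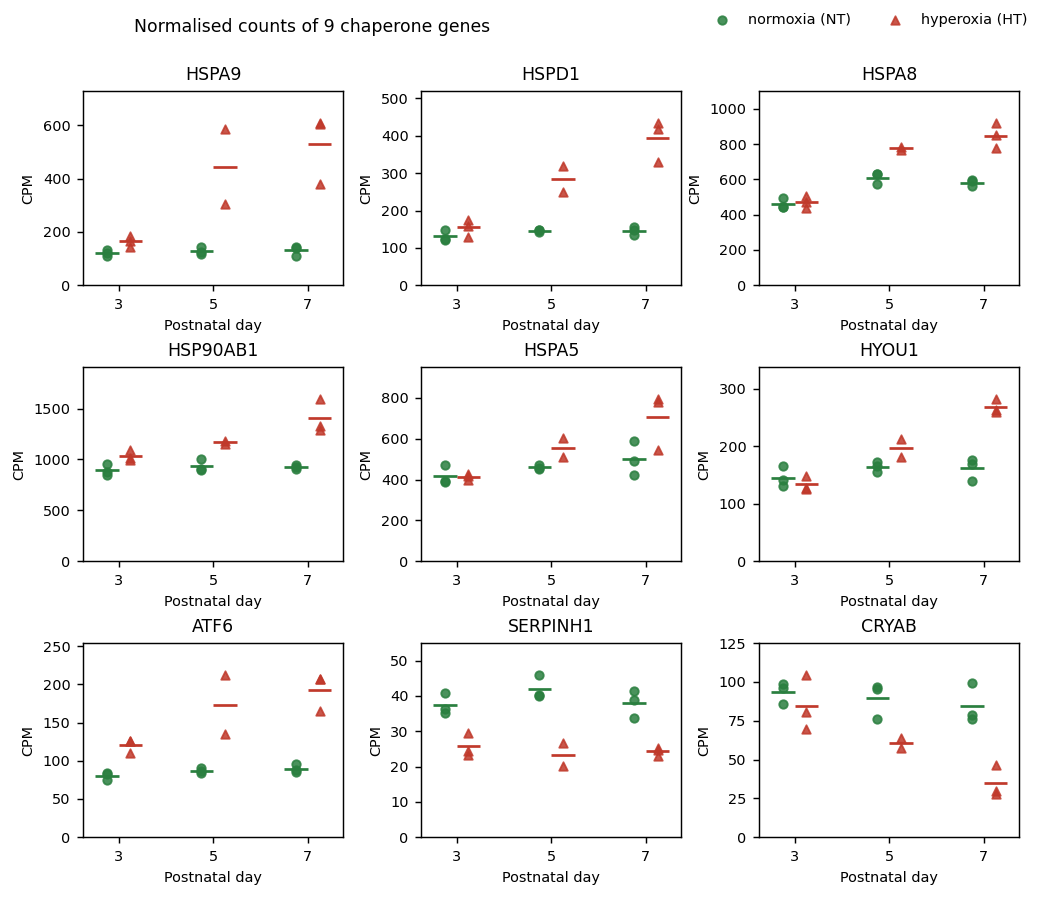
CPM of 9 chaperone genes by postnatal day, with 1 point per sample, normoxia in green circles, hyperoxia in red triangles and bars at the group means. HSPA9 and HSPD1 stay near 109 to 156 CPM in normoxia and reach 607 and 433 CPM in HT7, while HSPA5 overlaps between HT7 and NT7 and CRYAB falls to 28.0 CPM in HT7.

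Groups that did not overlap were counted as well. On day 7, 27.3% of all genes had every HT sample above every NT sample and 27.2% had them below. Of the ER genes, 7 of 21 were wholly above and 3 wholly below, and of the cytosolic and mitochondrial genes 9 of 13 were above and 2 below. On day 5 the shares over all genes were 26.5% and 29.2%, and 8 and 3 of 21 ER genes and 10 and 3 of 13 cytosolic and mitochondrial genes were apart. On day 3 they were 12.8% and 13.9%, and 3 and 4 ER genes and 4 and 1 of the others were apart.

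Chaperones of the same family in different compartments were also compared within a sample, as the log2 ratio of their counts, which needs no scaling between samples. The 7 pairs from the HSP70, HSP90 and HSP110 families were chosen after the values were seen. Their differences between HT and NT, averaged over days 5 and 7, are therefore given as a description, without p-values. The log2 ratio of HSPA9 to its ER relative HSPA5 was higher in hyperoxia by 1.48, and that to its cytosolic relative HSPA8 by 1.41. All 5 hyperoxia samples lay above all 6 normoxia samples in both ratios. The ratio of HSPA9 to HSPA5 was from -1.06 to 0.20 in hyperoxia and from -2.04 to -1.72 in normoxia. With 1 sample left out in turn, its difference lay between 1.19 and 1.78. On day 3 the differences of the 2 ratios were 0.45 and 0.41, and the groups did not overlap either.

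For the cytosolic HSP90 genes, the ratio of HSP90AB1 to its ER relative HSP90B1 was higher in hyperoxia by 0.54, and all 5 hyperoxia samples were above the 6 normoxia samples, from 0.27 to 0.91 against -0.05 to 0.22. On day 3 its difference was 0.23, with groups that did not overlap. The ratio of HSP90AA1 to HSP90B1 was higher by 0.56, with overlapping samples. The ratio of HSPA8 to HSPA5 differed by 0.07 (from -0.02 to 0.15 with 1 sample left out). In the HSP110 family, HSPH1 and HSPA4 against HYOU1 each differed by 0.15. Leaving out 1 sample in turn gave 0.00 to 0.30 for HSPH1 and 0.08 to 0.21 for HSPA4.

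**Figure D4:**
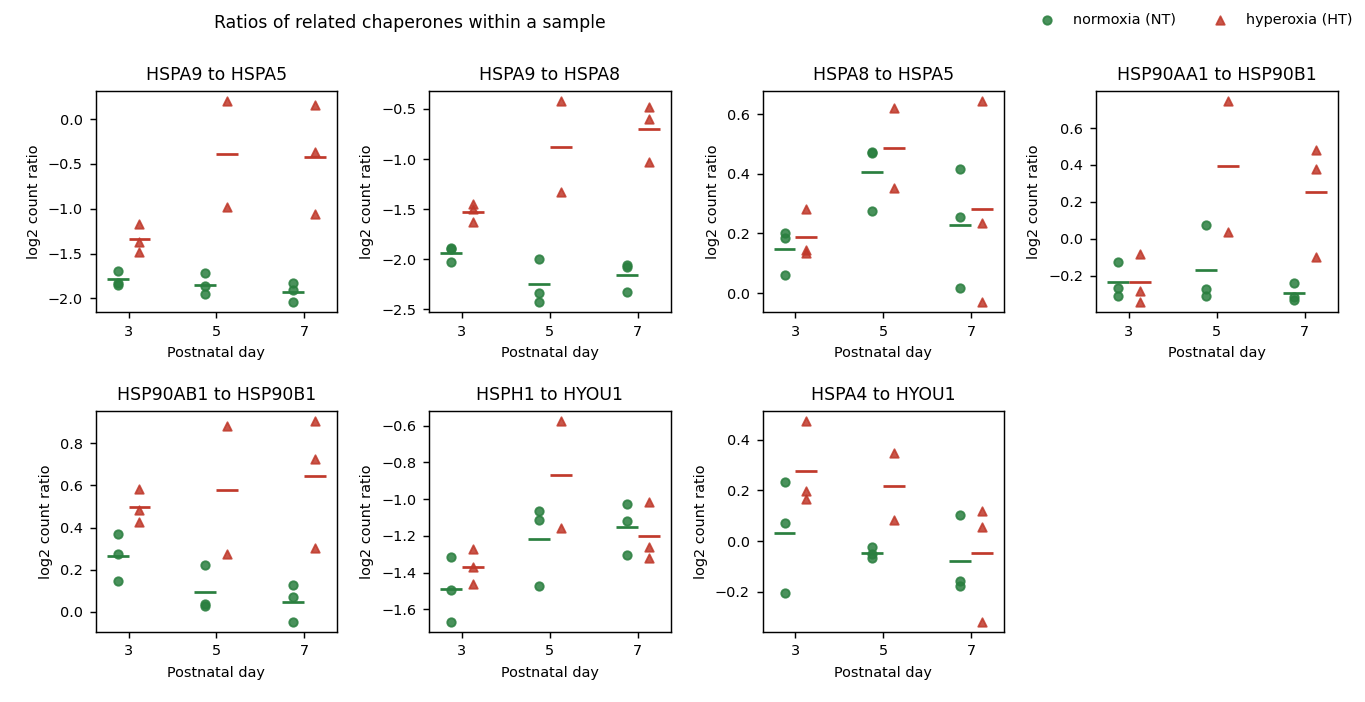
Log2 ratio of the counts of 2 related chaperones in the same sample, by postnatal day, with normoxia in green circles, hyperoxia in red triangles and bars at the group means. HSPA9 to HSPA5, HSPA9 to HSPA8 and HSP90AB1 to HSP90B1 are apart on days 3, 5 and 7, and the ratios of HSPA8 to HSPA5, HSPH1 to HYOU1 and HSPA4 to HYOU1 overlap on day 7.

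The change from day 3 to day 7 was then compared. The hyperoxia effect on day 7 minus that on day 3 was called for 7.27% of all genes and for 5 of the 34 chaperone genes (14.7%), 3 higher and 2 lower against 2.59% and 4.68% of all genes. It was 1.57 ± 0.31 for HSPA9 (adjusted p = 0.00442), 1.19 ± 0.19 for HSPD1 (adjusted p = 0.00171), 0.85 ± 0.16 for HYOU1 (adjusted p = 0.00385), -1.15 ± 0.27 for CRYAB (adjusted p = 0.00951) and -2.06 ± 0.48 for HSPB8 (adjusted p = 0.00921). HSPD1 kept this call without any 1 of the 12 samples. The others lost it in part, HYOU1 without HT3 replicate 1 or 2, HT7 replicate 1, NT3 replicate 3 or NT7 replicate 2 (adjusted p from 0.01 to 0.0123), and HSPA9 without HT3 replicate 1 or 2, HT7 replicate 1 or 3, NT3 replicate 1 or 3 or NT7 replicate 2 (adjusted p from 0.011 to 0.015). CRYAB kept it without HT3 replicate 3 or HT7 replicate 1 only, and HSPB8 without HT3 replicate 3 or HT7 replicate 2 only. Without HT3 replicate 2, the sample with high muscle markers, the HSPB8 difference was -1.46 (adjusted p = 0.0181). With the replicate number as a block, the calls of CRYAB (adjusted p = 0.0259) and HSPB8 (adjusted p = 0.0125) were also lost. Calls were gained without HT7 replicate 2 by HSPA8 (0.57, adjusted p = 0.00432) and HSPA4 (0.79, adjusted p = 0.000811). With DESeq2, HSPA8, HSPA4 and HSPH1 gained calls (adjusted p = 0.000885, 0.00223 and 0.00883). With upper quartile factors HSPA4 gained a call (adjusted p = 0.00998) and HSPB8 lost its call (adjusted p = 0.0101). With only the groups compared, CRYAB and HSPB8 lost theirs (adjusted p = 0.0141 and 0.0132). At an adjusted p under 0.05, 10 of the 34 passed, against 20.5% of all genes, and with the fold minimum 1 passed, HSPB8, against 1.56%.

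Within hyperoxia, HT7 against HT3 called 29.4% of all genes and 15 of the 34 chaperone genes (44.1%), with 14 upregulated and 1 downregulated against 14.3% and 15.1% of all genes. These included 7 of 21 ER genes (33.3%). HSPA5 rose by 0.77 ± 0.15 (adjusted p = 0.000869), HYOU1 by 1.0 ± 0.12 (adjusted p = 2.34e-05), DNAJB11 by 0.58, SDF2L1 by 0.89, MANF by 0.71, EDEM1 by 0.45 and ATF6 by 0.68. Of the others, HSPA8 rose by 0.84, HSPH1 by 1.18, HSPA4 by 0.69, HSP90AA1 by 0.77, HSP90AB1 by 0.44, HSPA9 by 1.69 and HSPD1 by 1.35, and CRYAB fell by 1.29. HSP90B1 differed by 0.30 ± 0.16 (adjusted p = 0.145). With HT3 and HT7 alone in the fit, 8 of the 34 genes were called, 2 of them ER genes (HYOU1 and ATF6), against 15.5% of all genes. In the main test none of the 34 passed the fold minimum, against 3.52% of all genes. SDF2L1 lost its call without HT3 replicate 1 (adjusted p = 0.0104), and EDEM1 without HT3 replicate 1 or 3 or HT7 replicate 1 or 3 (adjusted p from 0.0243 to 0.0389). HSP90AB1 lost it without HT3 replicate 2 or HT7 replicate 1 (adjusted p = 0.0104 for both). Calls were gained by BAG3 without HT3 replicate 3 (0.72, adjusted p = 0.00277) or HT7 replicate 2 (0.67, adjusted p = 0.00424), by HSF1 without HT7 replicate 2 (0.79, adjusted p = 0.00207) and by HSPB8 without HT3 replicate 3 (-1.37, adjusted p = 0.00478). The HSPB8 value was -1.10 in the main test and lay between -1.37 and -0.50 with 1 sample left out in turn. BAG3 also gained a call with DESeq2 (adjusted p = 0.00688) and with upper quartile factors (adjusted p = 0.00803), and HSPB8 with DESeq2 (-1.11, adjusted p = 0.00368). The fit with the replicate number as a block is not used for HT7 against HT3. Its block terms were set within each day against replicate 1, so it compares fitted replicate 1 levels and not group means.

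Within normoxia, NT7 against NT3 called none of the 34 genes and 0% of all genes, with 5 of the 34 at an unadjusted p under 0.05, against 6.27% of all genes, and none of the 34 by DESeq2. HSPA8 and HSPH1 were among these 5, with log2FC of 0.33 ± 0.09 (adjusted p = 0.483) and 0.49 ± 0.13 (adjusted p = 0.494). The comparisons of HT7 with HT3 and with NT7 share the HT7 samples.

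Other genes of the same pathways were counted for context, beside 33.6% of all genes called on day 7 (16.7% upregulated and 16.9% downregulated) and 16.2% on day 5 (8.56% and 7.62%). On day 7, of 46 other cytosolic chaperone genes, 19 were upregulated and 0 downregulated (41.3% called, median log2FC 0.53), and on day 5 11 and 0. The largest changes were in HSPBP1, which releases nucleotide from HSP70 (1.42), HSPA4L, a further HSP110 gene (1.33), CCT2, a subunit of the chaperonin that folds actin and tubulin (1.23), and PFDN4, a prefoldin subunit (1.17). Of 15 other mitochondrial chaperone and protease genes, 4 were upregulated and 1 downregulated (33.3% called, near the share of all genes, median log2FC 0.36). DNAJA3 (0.98), TIMM44 (0.96) and TRAP1 (0.70), which are a partner of HSPA9, its anchor at the import channel and the mitochondrial HSP90, were upregulated. GRPEL2, a nucleotide exchange factor of HSPA9, was downregulated (-1.19, adjusted p = 2.63e-06).

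Of 46 other ER folding and translocation genes, 9 were upregulated and 7 downregulated on day 7 (34.8% called against 33.6% of all genes, median log2FC 0.13). CREB3L1, an ER-bound transcription factor, had a log2FC of 2.33, its relative CREB3L2 -1.24, SEC61G, of the translocation channel, 0.94, and MBTPS1, the protease that cuts ATF6, -0.90 (adjusted p = 8.7e-05). MBTPS1 was also downregulated on day 5 (-1.02, adjusted p = 0.000357). Of 25 other degradation genes, 8 were upregulated, among them AUP1 (0.76), UBE2G2 (0.64) and UFD1 (0.63), and 1 was downregulated, DERL3 (-1.33), which also marks plasma cells. In all, 36% of this list were called, also near the share of all genes, with a median log2FC of 0.22. On day 5, 2 genes were upregulated and 6 downregulated among the other ER folding genes, 2 and 0 among the other degradation genes, and 2 and 1 among the other mitochondrial genes, and on day 3 none of the 4 lists held a called gene.

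Last, 8 measured genes that the kinase EIF2AK3 and related kinases raise through ATF4 were counted. Of these, 6 were upregulated and 1 was downregulated on day 7, and 5 and 0 on day 5, where 16.7% and 16.9% of all genes were called upregulated and downregulated on day 7 and 8.56% and 7.62% on day 5. The median log2FC of these genes on day 7 was 1.46. SESN2 had a log2FC of 3.45, ATF3 2.41 and ASNS 1.85, while DDIT3 (CHOP), the transcription factor linked to death after ER stress, had -2.35 (adjusted p = 0.000253). These genes also respond to signals other than ER stress.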

How the data were processed

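RNA was sequenced from the lungs of 17 rabbit pups in 6 groups. The deposited values are raw read counts per gene. Per the labels, polyA libraries were stranded and read in pairs, and the submitters' processing notes name FastQC, STAR 2.7.10a and the OryCun2.0 build; the counting tool and its strand setting are not given in the sources used here. Counts were tested with edgeR 4.0.16 in R 4.3.3, using the quasi-likelihood test, TMM factors, filterByExpr and 1 mean per group over all 17 samples. Adjusted p-values are Benjamini-Hochberg values over the 13142 genes tested, and log2FC used a prior count of 0.125. CPM are counts scaled by library size and TMM factor. Entries without a human gene name (44) stayed in the count matrix under their Ensembl identifier and could not be chosen by symbol. The test was checked on simulated counts. Alternatives were DESeq2 1.42.0, other scalings and filters, a fit of only the groups compared, the replicate number as a block, and leaving out each sample.

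The genes and lists were chosen with earlier results of these data known. Where a symbol had more than 1 entry, that with the highest total count was used. Values per sample are given for called genes, up to 10 ER and 6 cytosolic genes by absolute log2FC on day 7, both mitochondrial genes and any called gene moving against its group median. Of the other lists, the 4 called genes with the largest change on day 7 were named. Values of HSPA5, HSP90B1, XBP1 and HSPB8 and the ratios between chaperones (given without p-values) were added after the data were seen. So were the comparisons HT7 with HT3, NT7 with NT3 and day 7 with day 3 by alternative. Same-numbered samples deviated together on day 3 (correlations 0.17, 0.117 and 0.156), where the block changed no call of a chaperone gene, and not throughout on day 7 (0.146, 0.0847 and 0.0516). On day 5, with 2 pairs each centred on the mean of the 2, both correlations are equal by construction (0.196) and count as 1 value. No 2 samples of a group agreed within sampling noise.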

Additional observations from a re-analysis of the deposited data

Results flagged for a closer look

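The difference between the hyperoxia effects on days 7 and 3 was called for 5 chaperone genes, by edgeR's test of the difference itself with Benjamini-Hochberg adjustment over all genes, where 7.27% of all genes passed. The log2 difference was 1.57 for HSPA9 (adjusted p = 0.00442), 1.19 for HSPD1 (adjusted p = 0.00171) and 0.85 for HYOU1 (adjusted p = 0.00385). It was -1.15 for CRYAB (adjusted p = 0.00951) and -2.06 for HSPB8 (adjusted p = 0.00921). With 1 of the 12 samples left out, between 1 and 6 of the 34 genes were called. HSPD1 kept its call in 12 of 12 such fits, HYOU1 in 7, HSPA9 in 5 and CRYAB and HSPB8 in 2 each, and the replicate block ended the calls of CRYAB and HSPB8 (adjusted p = 0.0259 and 0.0125).

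HSPB8 also had every hyperoxia sample above every normoxia sample on days 3 and 5 and below on day 7, with log2FC of 1.12, 0.63 and -0.94. The difference between days 3 and 7 is the one tested above, and that between days 5 and 7 was not tested. Skeletal muscle markers summed to 500.3 CPM in HT3 replicate 2, the sample with the highest HSPB8 (45.6 CPM), and to 477 CPM in HT5 replicate 1. Without HT3 replicate 2 the difference was -1.46 (adjusted p = 0.0181), and the part of muscle in it was not tested.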

How the results depend on the processing

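No log2FC of the 34 genes that was called changed sign under any alternative. On day 7, 294 of 305 values of single genes under other settings and 170 of 204 with 1 sample left out kept their sign and their side of the limit, and on day 5 287 of 306 and 136 of 170. On day 7 the sign changed in 5 and 14 of these values and on day 5 in 2 and 11, for genes that were called neither in the reported test nor in the alternative, HSP90B1, PDIA3 and PDIA4 on day 7 among them. HT5 has 2 samples. In simulated data, 100 of 13142 genes were given a log2 change of 1 in either direction and 100 one of 2, for each day. A change of 1 was recovered for 50% of these genes on day 3, 42% on day 5 and 52% on day 7, and one of 2 for 78%, 79% and 79%. Many more genes were called in the data on days 5 and 7. The adjusted limit is stricter where few genes change, so these rates do not measure recovery in the tests of those days.

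The number of called ER genes on day 3 was 1 with DESeq2, which called 1.64% of all genes, and 1 at an adjusted p under 0.05, against 1.03%. On days 5 and 7 it was 0 with the fold minimum, against 1.58% and 4.59% of all genes. On day 5 it was 0 with only the groups compared, and 0 to 3 with 1 sample left out. Of the cytosolic and mitochondrial genes, 9 were called on day 5 with DESeq2, which called 24.4% of all genes, 10 at an adjusted p under 0.05, 0 with only the groups compared or the fold minimum, and 1 to 5 with 1 sample left out. On day 7, 1 passed the fold minimum. For the difference between days 7 and 3, 8 of the 34 were called with DESeq2 (15.9% of all genes) and 3 with only the groups compared (7.57% of all genes). At an adjusted p under 0.05, 10 passed (20.5% of all genes), with the fold minimum 1 (1.56% of all genes), and with 1 sample left out 1 to 6. For HT7 against HT3, 8 were called with only the groups compared (15.5% of all genes) and 0 with the fold minimum (3.52% of all genes). The cause of these changes was not tested.

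With the replicate block, 2 cytosolic and mitochondrial genes were called on day 5 (7.36% of all genes) and 3 of the 34 for the difference between days (4.57% of all genes). The ER median on day 5 was 0.18 with the block. Besides the calls named above, EDEM1, HSPA4, HSPH1 and HSPB1 on day 5 (adjusted p = 0.0228, 0.0362, 0.0144 and 0.0297) and SYVN1 on day 7 (adjusted p = 0.0265) were lost with the block.

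With 1 sample left out, the median log2FC on day 3 lay between -0.084 and 0.029 for ER genes and -0.017 and 0.085 for cytosolic genes. On day 5 it lay between -0.037 and 0.22 for ER, 0.32 and 0.50 for cytosolic and 0.99 and 1.66 for mitochondrial genes. Over all genes, 27 were called on day 3, 205 with DESeq2 and 2 with the block. On day 5 these were 2126, 12 with only the groups compared and 967 with the block, and on day 7 4413 and 2924 with only the groups compared. For the difference between days they were 955, 1941 with DESeq2 and 600 with the block. For HT7 against HT3 they were 3869, 4618 with DESeq2 and 1936 with only the groups compared, and for NT7 against NT3 0 and 15 with DESeq2.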

Other observations

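The subunits of the cytosolic chaperonin CCT, which folds actin and tubulin, were looked at after the values of the list of other cytosolic chaperones were seen. All 8 subunits in the table were called upregulated on day 7 by edgeR, with log2FC from 0.45 to 1.23 and adjusted p-values from 1.05e-05 to 0.00222, where 16.7% of all genes were called upregulated. On day 5, 6 of the 8 were called upregulated, with log2FC from 0.24 to 0.75 over the 8, against 8.56% of all genes. On day 3 none was called by edgeR, with log2FC from 0.12 to 0.22. All hyperoxia samples lay above all normoxia samples for 8 of 8 subunits on days 5 and 7, against 26.5% and 27.3% of all genes. The difference between the effects on days 7 and 3 was called higher for 5 of the 8, against 2.59% of all genes.

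Neutrophil, macrophage and airway markers, which were not set beside a chaperone gene above, had summed levels in HT7 of 1048 to 3458, 1905 to 2458 and 355 to 441 CPM, against 1063 to 1153, 1142 to 1368 and 279 to 320.1 CPM in NT7. On day 5, neutrophil markers summed to 702 to 951 CPM in HT5 and 157 to 691 CPM in NT5, and macrophage markers to 1707 to 1879 and 859 to 1627 CPM. On day 3, neutrophil markers summed to 1138 to 1675 CPM in HT3 and 296 to 795 CPM in NT3, and macrophage markers to 1012 to 1437 and 935 to 1030.3 CPM. A sum is weighted by its most abundant genes, and the 9 macrophage genes did not move together. Their median log2FC was -0.24 on day 5 (from -0.63 to 2.12, 1 called upregulated and 0 downregulated). On day 7 it was -0.12 (from -2.19 to 1.71, 1 called upregulated and 1 downregulated). The day 7 medians of the neutrophil and airway genes were 0.91 and 0.96. The part of these cell types in the chaperone values was not tested. Plasma and B cell markers summed to 9.22 to 12.1 CPM in HT7 and 15.4 to 21.4 CPM in NT7.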
